A study of Mus musculus with 6 samples.

Results

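The genes that encode the subunits of oxidative phosphorylation were compared between tibias of Atrx-cKO and control mice. Members were the protein-coding genes of GENCODE M21 whose symbol begins with Nduf and a subunit letter and number, with Uqcr, with Cox4 through Cox8, with Atp5 or with mt-, together with Sdha, Sdhb, Sdhc and Sdhd. The rule found 98 of the 55401 gene entries in the tables, of which 85 lie in the nuclear genome and 13 on mitochondrial DNA. By name, complex I had 37 nuclear and 7 mitochondrial members, complex II had 4 nuclear members and complex III had 8 nuclear members and 1 mitochondrial member. Complex IV had 18 nuclear and 3 mitochondrial members, and complex V had 18 nuclear entries, counting 2 identifiers that both carry the symbol Atp5o, and 2 mitochondrial members. A name is not an exact guide to a complex: Ndufa4 is listed here with complex I and is known as a subunit of complex IV, and Cox7a2l is known as a factor that joins complexes III and IV.

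Oxidative phosphorylation takes place in the inner mitochondrial membrane. Complexes I and II take electrons from NADH and succinate, complex III passes them to cytochrome c, complex IV hands them to oxygen, and complex V, the ATP synthase, uses the proton gradient that complexes I, III and IV build. Complexes I, III, IV and V each combine proteins made in the cytosol from nuclear genes with a hydrophobic core translated inside the organelle from mitochondrial DNA, whereas every subunit of complex II is nuclear. Some subunits of complex IV exist as a form used in most tissues and a form used in heart and skeletal muscle. Osteoblasts and osteoclasts both rely on mitochondria, and a whole tibia also holds marrow, cartilage, vessels and any muscle left on the bone.

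The Atrx-cKO mice carried a floxed Atrx allele on their single X chromosome and the Osterix-Cre transgene (genotype label Osterix-Cre; Atrxf/y), and the control mice carried the floxed allele without Cre (label Atrxf/y). All mice were male and 8 weeks old. The transgene uses Sp7 (Osterix) sequences to drive a tetracycline-controlled transactivator, which acts on a Cre fused to a green fluorescent protein, and doxycycline kept it silent from conception until 3 weeks of age. No library from mice with Osterix-Cre and an intact Atrx gene was analysed here, so effects of the transgene and of the deletion cannot be told apart. Each group had 3 libraries of polyadenylated RNA from whole, snap-frozen tibias, and the labels number them without naming animals, so the p-values measure the spread between these libraries. In bulk bone, fewer cells of a type and less RNA per cell cannot be told apart.

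Counts on genes ranged from 50977777 to 70571655 per library, and levels below are CPM, counts divided by a library size that was scaled by the trimmed mean of M values. Atrx had 153, 166 and 171 CPM in the Atrx-cKO libraries and 174, 166 and 165 CPM in the control libraries (log2 fold change -0.047, standard error 0.080; Benjamini-Hochberg adjusted p = 0.992 by the quasi-likelihood test of edgeR). These reads come from the entire gene and from all cells of the bone, so they do not check the genotypes. Osteoblast and osteocyte markers were abundant in every library, with Col1a1 between 53548 and 92517 CPM, as were marrow markers. The 15 fast and pan-muscle markers summed to 3044, 1603 and 877 CPM in Atrx-cKO and to 1025, 1156 and 15000 CPM in control libraries, and all 15 had counts. The sum was by far the highest in the third control library, where 13 of the 15 were the highest of the controls, and the highest of its group in the first Atrx-cKO library, where all 15 were. The exceptions were Myh1 and Myh2, myosins of other fast fibers, with 52.4 and 10.7 CPM in the third control library, the lowest of the controls. The 8 slow-fiber markers did not share the excess of the third control library, where 1 of the 8 was the highest of the controls. In the first Atrx-cKO library, however, 7 of the 8 were the highest of the group. Slow-fiber sums were 344, 264 and 224 CPM in Atrx-cKO and 290, 273 and 257 CPM in control libraries.

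Of the 98 members, 94 passed the filter on low counts, 82 nuclear and 12 mitochondrial. The 4 that did not were Cox8c and Cox7b2, isoforms known from testis, and the second Atp5o entry, all at 0 counts in the 6 libraries, and mt-Atp8, with 2, 5 and 5 counts in Atrx-cKO and 11, 5 and 3 counts in control libraries. A count of 0 allows up to 0.0450 to 0.0630 CPM, depending on the library (3 counts, counting error only).

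No member passed an adjusted p of 0.05 in the comparison of Atrx-cKO with control tibias (quasi-likelihood test of edgeR, Benjamini-Hochberg adjusted over 20636 genes), where 0.0145% of all genes tested did. No member reached an unadjusted p of 0.05 either, against 3.64% of all genes, and DESeq2 likewise gave 0 of 95 members by its adjusted p (0.155% of all genes). The lowest unadjusted p among the members was 0.0636, and their lowest adjusted p was 0.992. In no member did the 3 Atrx-cKO libraries all lie above the 3 control libraries (4.30% of all genes). All 3 lay below them in 2 members, against 4.01% of all genes. These 2 were Ndufa1, a small membrane subunit of complex I, and Atp5e, the epsilon subunit of the ATP synthase rotor, and they are named because their values set them apart.

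Ndufa1 had 24.1, 22.8 and 21.5 CPM in Atrx-cKO and 25.9, 24.7 and 26.7 CPM in control tibias (log2 fold change -0.18, 95% interval -0.38 to 0.026). Atp5e had 73.7, 67.4 and 73.6 CPM in Atrx-cKO and 79.4, 76.1 and 87.0 CPM in control tibias (log2 fold change -0.18, 95% interval -0.36 to 0.013). The gap between the nearest libraries of the 2 groups was small beside the spread within a group for both genes.

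The intervals show how large a difference the libraries could have hidden. For 75 of the 82 nuclear members and 7 of the 12 mitochondrial members the whole 95% interval of the log2 fold change lay within 0.5 of 0, that is between 0.707-fold and 1.41-fold, as it did for 47.7% of all genes tested. The widest intervals among nuclear members belonged to Cox8b, Cox7a1, Ndufs5 and Cox6a2, each described further down. The other 78 nuclear members had log2 fold changes from -0.29 to 0.12, and the ratio of their highest to their lowest library ran from 1.11 to 1.73.

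**Figure D1:**
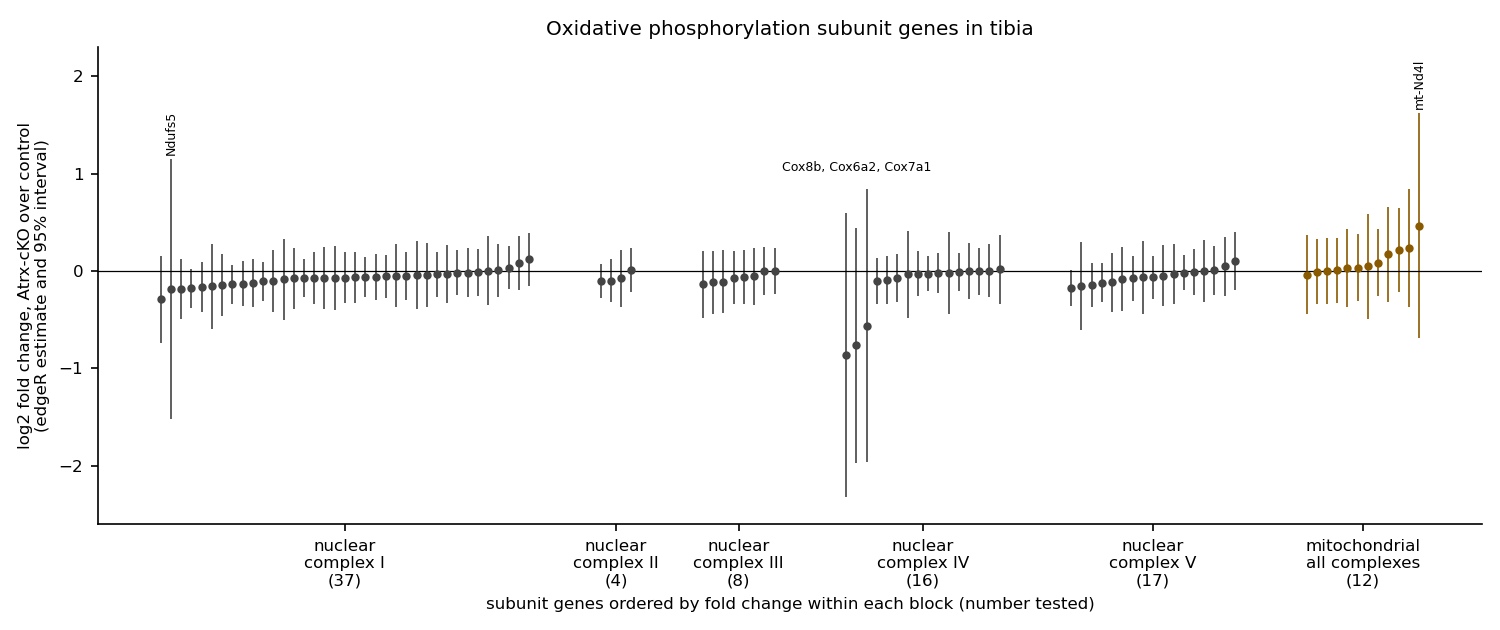
Log2 fold change of each tested subunit gene, Atrx-cKO over control, with its 95% interval from edgeR (n = 3 per group), ordered within blocks for the nuclear genes of each complex and for the mitochondrial genes. Every interval crosses 0, most points lie between -0.29 and 0.12, and Cox8b, Cox6a2, Cox7a1, Ndufs5 and mt-Nd4l carry the widest intervals.

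Nuclear members leaned slightly to lower values in Atrx-cKO tibias. Of the 82, 68 had a log2 fold change below 0 (82.9%, against 48.8% of all genes tested), with a median of -0.065 beside 0.0050 for all genes. The lean was shared by the complexes: 32 of 37 complex I genes were below 0 (median -0.068), 3 of 4 complex II genes (median -0.088), 6 of 8 complex III genes (median -0.065), 14 of 16 complex IV genes (median -0.029) and 13 of 17 complex V genes (median -0.063). It was no larger than the differences between single libraries. The nuclear median was 0.0030 without the third control library, -0.15 without the first Atrx-cKO library and 0.0087 when counts were scaled to library size alone, a scaling under which the median of all genes was 0.077.

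Nuclear members rose and fell together from library to library. Their median level relative to each gene's own mean over the 6 libraries was 1.10, 0.928 and 0.914 in Atrx-cKO and 0.997, 0.945 and 1.13 in control libraries. In 75 of the 82 the first library was the highest of the Atrx-cKO group (38.8% of all genes tested), and in 71 of the 82 the third library was the highest of the control group (35.8% of all genes). Both held for 67 nuclear members (13.5% of all genes), among them all 4 of complex II and all 8 of complex III. These were also the libraries with the largest fast-muscle marker sum of their group, at 3044 and 15000 CPM. The chondrocyte marker sum was the largest of its group in them too, at 1165 and 1597 CPM, the latter beside 1587 CPM in the second control library. Of the 6 chondrocyte markers, however, only 2 were highest of the group in the first Atrx-cKO library. In the third control library 5 were, and 1 marker was highest in both. The neutrophil marker sum was the largest of its group in the first Atrx-cKO library (13627 CPM) and the smallest of its group in the third control library (7668 CPM). With the fast-muscle sum as a covariate the nuclear median was -0.016. The part of muscle RNA, or of RNA from other tissues, in the pattern was not otherwise tested.

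**Figure D2:**
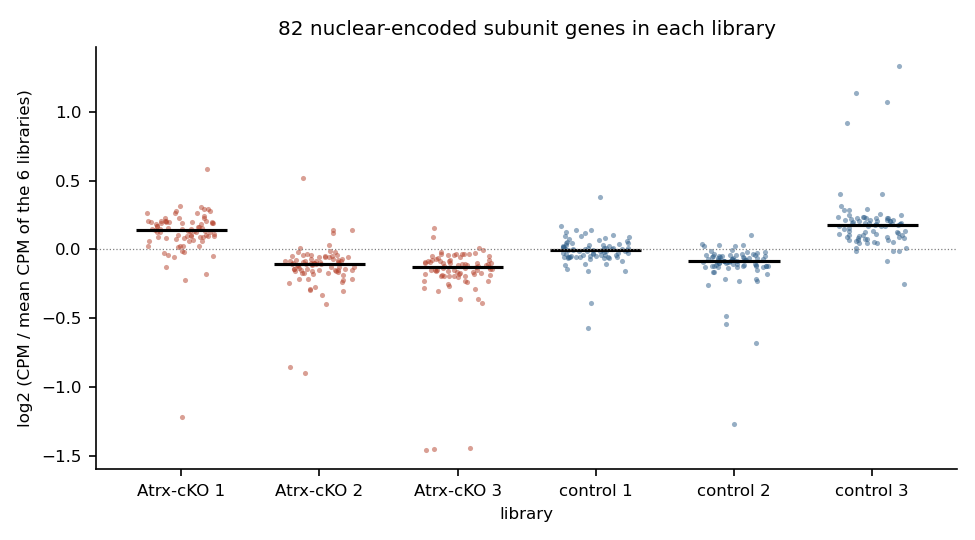
Each point is 1 of the 82 tested nuclear subunit genes in 1 library, as log2 of its CPM over its mean CPM in the 6 libraries, and bars are medians over the genes (red, Atrx-cKO; blue, control). Atrx-cKO 1 and control 3 lie above 0 for most genes and the other libraries near or below it, with a few genes far from the rest in single libraries.

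Promoters were read for the nuclear members because so many of them moved together. NRF1 and GABP, an ETS family factor, are known to drive many nuclear genes for mitochondrial proteins, and their binding cores were searched on both strands from 250 bases before to 50 bases after the start of each gene in RefSeq (GRCm38.p6), which held 68 of the 84 symbols. The NRF1 core GCGCATGC was in 10 of the 68 (14.7%) and in 3.05% of all genes in the table. The ETS core CCGGAAG was in 16 of the 68 (23.5%) and in 9.93% of all genes, and the E-box CANNTG, the letters read by muscle regulators such as MyoD among many other factors, was in 70.6% and 75.0%. The promoters below are those of Cox6a1 and Cox8a, the forms of 2 complex IV subunits used in most tissues, and of Cox8b, the muscle form of the same subunit as Cox8a. Capitals mark the NRF1 and ETS cores, and the 2 NRF1 matches of Cox6a1, 1 on each strand, overlap.
Cox6a1 promoter (chr5:115348909-115349208, minus strand): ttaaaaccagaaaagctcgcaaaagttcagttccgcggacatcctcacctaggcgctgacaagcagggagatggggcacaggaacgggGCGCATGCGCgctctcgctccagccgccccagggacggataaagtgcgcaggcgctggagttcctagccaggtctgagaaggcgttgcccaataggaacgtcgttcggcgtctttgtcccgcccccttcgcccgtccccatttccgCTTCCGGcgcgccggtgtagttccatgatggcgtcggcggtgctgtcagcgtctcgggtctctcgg
Cox8a promoter (chr19:7217567-7217866, minus strand): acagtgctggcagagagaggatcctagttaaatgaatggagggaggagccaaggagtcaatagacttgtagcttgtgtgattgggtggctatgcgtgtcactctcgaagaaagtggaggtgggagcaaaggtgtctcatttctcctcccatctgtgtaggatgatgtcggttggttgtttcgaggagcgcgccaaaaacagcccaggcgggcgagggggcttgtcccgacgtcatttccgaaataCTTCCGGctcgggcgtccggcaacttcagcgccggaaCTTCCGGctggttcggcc
Cox8b promoter (chr7:140900397-140900696, minus strand): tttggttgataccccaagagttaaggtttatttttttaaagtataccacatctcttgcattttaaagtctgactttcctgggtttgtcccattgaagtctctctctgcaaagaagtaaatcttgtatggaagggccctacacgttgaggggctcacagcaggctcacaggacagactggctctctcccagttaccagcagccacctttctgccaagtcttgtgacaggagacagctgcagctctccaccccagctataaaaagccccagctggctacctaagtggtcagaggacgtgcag
Cox6a1 had 2 NRF1 matches and 1 ETS match, and Cox8a had 2 ETS matches. Cox8b had neither core and 2 E-boxes, and the Cox8a window also holds an E-box match. Such matches say only that these letters are or are not in the window.

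Among the complex IV subunits, the muscle forms were the members with the lowest fold changes, and none passed the test. Cox6a2 (ENSMUSG00000030785, chr7:128205435-128206387) had 10.2, 7.09 and 3.45 CPM in Atrx-cKO and 8.97, 5.82 and 20.4 CPM in control tibias. Cox7a1 (ENSMUSG00000074218, chr7:30184144-30186078) had 6.12, 2.26 and 1.49 CPM in Atrx-cKO and 3.12, 2.93 and 8.57 CPM in control tibias. Cox8b (ENSMUSG00000025488, chr7:140898945-140900446) had 4.84, 2.12 and 1.44 CPM in Atrx-cKO and 2.66, 2.72 and 9.94 CPM in control tibias. In all 3 genes control 3 was the highest library, Atrx-cKO 1 the next and Atrx-cKO 3 the lowest, the places that these libraries also held for the sum of the fast-muscle markers. The groups overlapped in each gene.

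The fold changes of the muscle forms rested on single libraries. Cox8b had a log2 fold change of -0.86 (standard error 0.63, 95% interval -2.32 to 0.60). That of Cox6a2 was -0.76 (standard error 0.52, 95% interval -1.97 to 0.44), and that of Cox7a1 was -0.56 (standard error 0.60, 95% interval -1.96 to 0.84). Without the third control library these became 0.044 for Cox8b, -0.11 for Cox6a2 and 0.11 for Cox7a1, and without the first Atrx-cKO library they became -1.51, -1.15 and -1.37. With the muscle marker sum as a covariate they were -0.32, -0.38 and -0.20, none with an unadjusted p under 0.05. Cox6a2 shares 70 exonic bases with Itgad on the opposite strand, and since the strand setting of the counting is not given, some of its counts may belong to that gene.

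The common forms of the same subunits varied less than the muscle forms. Cox6a1 had 120, 112 and 110 CPM in Atrx-cKO and 115, 111 and 122 CPM in control tibias (log2 fold change -0.028, standard error 0.077). Cox8a had 86.6, 74.0 and 75.2 CPM in Atrx-cKO and 84.7, 75.8 and 78.5 CPM in control tibias (log2 fold change -0.019, standard error 0.089). Cox7a2 had 45.1, 37.1 and 33.7 CPM in Atrx-cKO and 37.5, 37.6 and 40.5 CPM in control tibias (log2 fold change 0.0040, standard error 0.12). Cox6a1 varied 1.11-fold over the 6 libraries, Cox8a 1.17-fold and Cox7a2 1.34-fold, the last near the median of 1.30-fold for nuclear members. Per kilobase of exon, the muscle form therefore made up a small and uneven part of each pair. Cox6a2 was 8.04%, 6.13% and 3.14% of Cox6a2 and Cox6a1 together in the Atrx-cKO libraries and 7.43%, 5.12% and 14.7% in the control libraries. Cox7a1 ranged from 7.26% to 27.2% of its pair with Cox7a2, and Cox8b from 3.19% to 17.9% of its pair with Cox8a, with control 3 at the top each time.

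**Figure D3:**
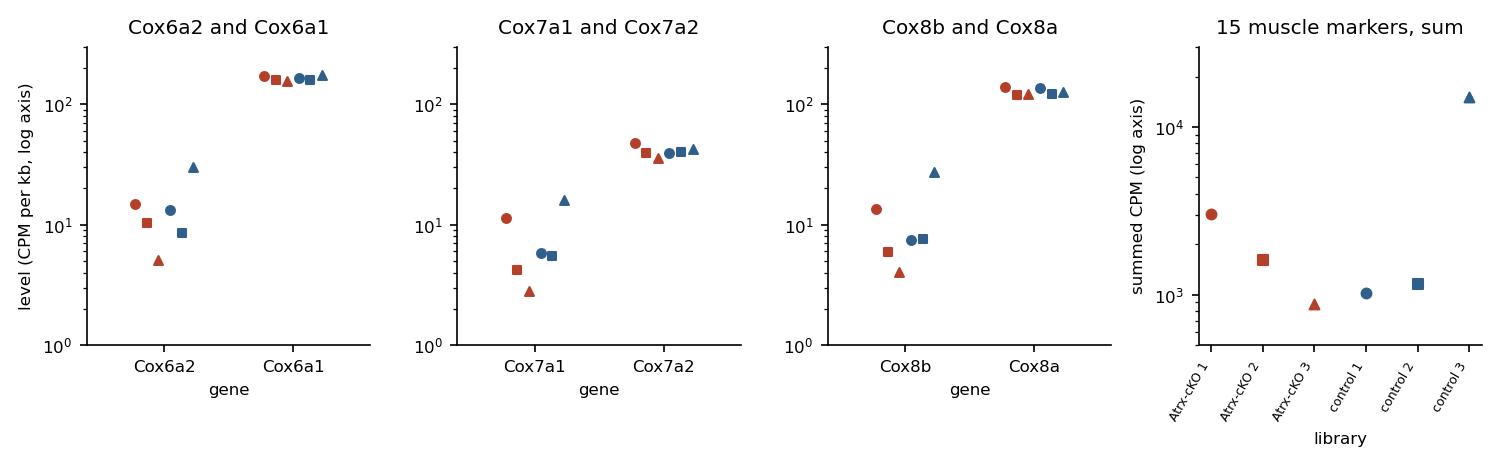
Levels per kilobase of exon (log axis) of the muscle and common forms of 3 complex IV subunits in each library, and the summed CPM of 15 fast and pan-muscle markers (log axis); red, Atrx-cKO and blue, control, with circles, squares and triangles for replicates 1, 2 and 3. The muscle forms spread over the libraries with control 3 highest, and the common forms sit close together.

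Other pairs were Cox4i1 and Cox4i2, Cox6b1 and Cox6b2, and Ndufa4 and Ndufa4l2. In each, the common form was the highest of its group in both Atrx-cKO 1 and control 3. No rarer form was highest in both, though Ndufa4l2 was the highest of the controls in control 3. Cox4i2 was nearly equal in Atrx-cKO 1 and Atrx-cKO 2. Cox4i2, the form of subunit 4 known from lung and for its induction by low oxygen, had 5.64, 5.67 and 4.01 CPM in Atrx-cKO and 5.59, 5.07 and 4.85 CPM in control tibias. Its common partner Cox4i1 had 183, 166 and 160 CPM and 171, 158 and 191 CPM. Cox4i2 made up 4.70% to 6.29% of the pair per kilobase. Cox6b2, known mainly from testis, had 8.16, 8.90 and 10.3 CPM in Atrx-cKO and 12.0, 8.21 and 7.75 CPM in control tibias, beside 62.1, 54.0 and 52.3 CPM and 58.9, 49.7 and 59.9 CPM for Cox6b1, and the log2 fold changes were -0.033 for Cox6b2 and -0.00089 for Cox6b1. Ndufa4l2, a paralog of Ndufa4 that is known to respond to low oxygen, had 9.92, 12.8 and 9.85 CPM in Atrx-cKO and 12.0, 12.4 and 12.6 CPM in control tibias (log2 fold change -0.18, 95% interval -0.49 to 0.13). Ndufa4 itself had 75.9, 57.3 and 56.6 CPM and 60.6, 54.5 and 74.1 CPM, with the highest library of each group the same as for most nuclear members. Cox7a2l ran the other way in the Atrx-cKO group, with 67.2, 73.7 and 78.2 CPM beside 75.9, 68.7 and 76.1 CPM in controls (log2 fold change -0.010). Cox7b, a small subunit that also has a testis form, had a log2 fold change of -0.0019.

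The 3 genes Atp5g1, Atp5g2 and Atp5g3 encode the same mature protein, the ring subunit c of the ATP synthase, with different targeting peptides. Per kilobase of exon their control means were 10.8 ± 1.58, 28.8 ± 0.506 and 50.9 ± 4.08 CPM (SD, n = 3). Per kilobase, the order Atp5g3, Atp5g2, Atp5g1 held by more than the spread. The same order was found in Atrx-cKO tibias at 51.0 ± 9.48, 28.5 ± 2.02 and 9.71 ± 2.68 CPM per kilobase (SD, n = 3). The order of Atp5g2 and Atp5g1 rests on their exon lengths, 1675 and 4912 bases as unions of all annotated transcripts. Before division by length, their control means were 48.2 and 53.2 CPM, the other way round. Their log2 fold changes were 0.0015 for Atp5g3, -0.016 for Atp5g2 and -0.16 for Atp5g1. Processed copies elsewhere in the genome hold 34.7% of the 100-base windows of Atp5g2 and 5.94% of those of Atp5g1, so part of their reads could be placed elsewhere.

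Complex II, the succinate dehydrogenase shared with the citric acid cycle, was steady. Sdha, its flavoprotein, had 188, 174 and 173 CPM in Atrx-cKO and 186, 175 and 211 CPM in control tibias (log2 fold change -0.10, 95% interval -0.32 to 0.12). Sdhb, the iron-sulfur subunit, had 58.8, 55.7 and 53.5 CPM and 59.1, 57.7 and 63.5 CPM (log2 fold change -0.10, 95% interval -0.28 to 0.073). The membrane anchors Sdhc and Sdhd had log2 fold changes of -0.077 and 0.0075, and their means were 62.2 ± 9.87 and 61.5 ± 6.37 CPM in Atrx-cKO and 65.6 ± 6.72 and 61.1 ± 4.31 CPM in control tibias (SD, n = 3). All 4 intervals lay within 0.5 of 0.

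Levels per kilobase of exon differed far more between subunits than between genotypes. In control tibias the nuclear members ran from 1.66 CPM per kilobase for Ndufb2 to 166 for Cox6a1, with a median of 27.1. The most abundant of each complex were Ndufb11 at 66.5 ± 6.28, Sdhd at 49.7 ± 3.50, Uqcr10 at 55.4 ± 6.54, Cox6a1 at 166 ± 7.80 and Atp5a1 at 144 ± 15.6 CPM per kilobase (SD, n = 3). Ndufb11 is an accessory subunit of the membrane arm of complex I, Uqcr10 a small subunit of complex III, and Atp5a1 the alpha subunit of the ATP synthase head. Their log2 fold changes were 0.034, 0.0075, -0.14, -0.028 and -0.049 in the same order. Exon length here is the union of all annotated transcripts, so a gene with long minor transcripts, such as Ndufb2 with 5628 bases, is given a low level per kilobase.

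The nuclear members with the highest fold changes were Ndufc2, a complex I membrane subunit, Atp5mpl, a small ATP synthase protein, and Ndufb2. Ndufc2 had 37.5, 30.8 and 29.0 CPM in Atrx-cKO and 28.0, 29.5 and 32.1 CPM in control tibias (log2 fold change 0.12, unadjusted p = 0.336 by edgeR's quasi-likelihood test). Atp5mpl had 32.3, 23.8 and 25.8 CPM and 24.4, 24.5 and 27.4 CPM (log2 fold change 0.11). Ndufb2 had 10.9, 9.33 and 9.42 CPM and 9.34, 9.10 and 9.56 CPM (log2 fold change 0.084). In each the first Atrx-cKO library was the highest of the 6 and the groups overlapped.

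The 13 mitochondrial members fell into separate ranges of level. Per kilobase and in control tibias, mt-Co1, the catalytic core of complex IV, had 5543 ± 143 CPM, mt-Cytb of complex III had 3841 ± 251, and the complex I genes mt-Nd1, mt-Nd2, mt-Nd4, mt-Nd5 and mt-Nd6 had 2700 ± 296, 1743 ± 230, 1202 ± 103, 1495 ± 132 and 1492 ± 164 (SD, n = 3). In contrast, mt-Nd3 had 6.64 ± 0.416, mt-Co3 had 2.03 ± 0.163, mt-Atp6 had 1.76 ± 0.424, mt-Co2 had 1.68 ± 0.101 and mt-Nd4l had 1.17 ± 0.0904 CPM per kilobase (SD, n = 3). The mitochondrial genome is known to be transcribed as long polycistronic RNAs, with mt-Co1, mt-Co2, mt-Atp8, mt-Atp6 and mt-Co3 as neighbors on 1 strand, yet the neighbors of mt-Co1 were all listed at 2.03 CPM per kilobase or less in control tibias.

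The low group also differed in sequence. For mt-Co2, mt-Co3, mt-Atp6, mt-Nd3 and mt-Nd4l, between 97.6% and 99.9% of all 100-base windows occur letter for letter in another annotated transcript. The share was 60.8% for mt-Nd4, 30.8% for mt-Co1, 3.19% for mt-Nd2 and 0% for the other mitochondrial members, mt-Atp8 included. For each of the 5 low genes the main match is an unprocessed pseudogene on chromosome 1, a copy of mitochondrial DNA in the nuclear genome, and these 5 copies had between 2 and 157 counts per library themselves. A copy on chromosome 2, Gm13341, also held 88 of the 585 windows of mt-Co2 and had 13 to 46 counts per library. Reads without a unique alignment, which the tables keep as a separate entry, were 3.69% to 4.56% of each table, and which genes they came from was not tested.

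The start of mt-Co2 (chromosome M from 7013 to 7696) and of mt-Nd3 (chromosome M from 9459 to 9806) are shown with their copies Gm28661 (chr1:24614885-24615565) and Gm28438 (chr1:24612775-24613119), because a read within these stretches matches both places equally or with 1 base between them. Over the aligned coding bases mt-Co2 and Gm28661 are identical at 681 of 681, and mt-Nd3 and Gm28438 at 344 of 345, with the differing base in capitals.
mt-Co2 and Gm28661: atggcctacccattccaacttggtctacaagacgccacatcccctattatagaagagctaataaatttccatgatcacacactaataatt
mt-Nd3: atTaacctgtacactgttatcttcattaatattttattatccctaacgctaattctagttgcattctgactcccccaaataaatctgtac
Gm28438: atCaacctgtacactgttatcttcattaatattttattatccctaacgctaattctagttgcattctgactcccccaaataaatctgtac

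The remaining low gene, mt-Atp8, has no 100-base window in another annotated transcript, but it overlaps mt-Atp6. On mitochondrial DNA mt-Atp8 lies between mt-Co2 and mt-Atp6, whose copies on chromosome 1 are Gm28661 (chr1:24614885-24615565) and Gm10925 (chr1:24613974-24614651). Only annotated transcripts were searched, and whether the chromosome 1 copy continues between these entries was not tested. The last 43 bases of mt-Atp8 are the first 43 bases of mt-Atp6, read in another frame, and the capitals mark the start codon of mt-Atp6.
mt-Atp8 end and mt-Atp6 start: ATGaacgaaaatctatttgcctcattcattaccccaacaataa
Reads entered as ambiguous between genes have their own entry, with 0.644% to 0.701% of each library. The rule that sent reads there is not given in the sources used here, and which genes they came from was not tested. Likewise, mt-Nd4l shares 7 bases with mt-Nd4. The part of the copies and overlaps in the low levels was not tested, and the levels of these 6 genes are not read here as amounts of RNA.

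**Figure D4:**
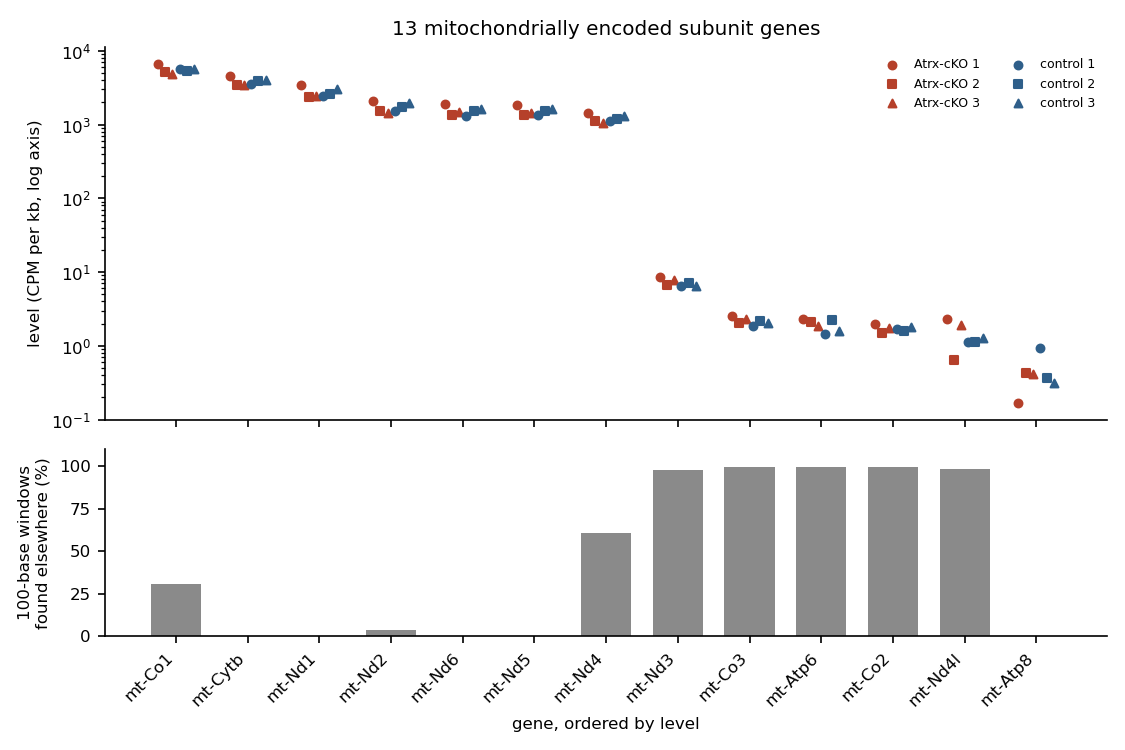
Upper panel, level of each mitochondrially encoded subunit gene per kilobase (log axis) in the 6 libraries; lower panel, percent of the gene's 100-base windows found in another annotated transcript. The 7 genes at 1202 CPM per kilobase or more in controls have between 0% and 60.8% of their windows elsewhere, 5 low genes have 97.6% or more, and mt-Atp8 is low with 0%.

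Among the 7 mitochondrial genes with high counts no difference between the genotypes was larger than the spread. Of these, mt-Nd4 has 60.8% and mt-Co1 30.8% of its windows in other transcripts, so part of their reads could be placed elsewhere. mt-Co1 had 10273, 7969 and 7567 CPM in Atrx-cKO and 8721, 8312 and 8658 CPM in control tibias (log2 fold change 0.0066, 95% interval -0.33 to 0.34). mt-Cytb had 5259, 3964 and 3966 CPM and 4094, 4423 and 4667 CPM (log2 fold change 0.00045, 95% interval -0.34 to 0.34). mt-Nd1 had 3305, 2270.5 and 2334 CPM and 2332, 2529 and 2890 CPM (log2 fold change 0.029, 95% interval -0.37 to 0.43). The first Atrx-cKO library was the highest of its group in all 12 tested mitochondrial genes, and in each of these 3 it was the highest of the 6. For mt-Nd2, mt-Nd4, mt-Nd5 and mt-Nd6 the log2 fold changes were -0.038, -0.0067, 0.036 and 0.086. mt-Nd6, the only subunit gene on the other mitochondrial strand, lies beside mt-Nd5 with 14 shared bases, and without a known strand setting reads from the opposite strand cannot be told apart from its own.

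In the 5 low genes with nuclear copies the log2 fold changes were all above 0, from 0.050 for mt-Co2 to 0.47 for mt-Nd4l, and none passed the test. mt-Nd4l rested on 0.684, 0.193 and 0.560 CPM in Atrx-cKO and 0.333, 0.330 and 0.378 CPM in control tibias, with an interval from -0.69 to 1.62. mt-Nd3 had 2.99, 2.35 and 2.72 CPM and 2.23, 2.48 and 2.23 CPM (log2 fold change 0.22, unadjusted p = 0.279 by edgeR's quasi-likelihood test). For mt-Co3 and mt-Atp6 the values were 0.17 and 0.23. The median of the 12 mitochondrial genes was 0.043, and that of the 7 with fewer copied windows was 0.0066.

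Summed over genes, mitochondrial transcripts outnumbered the nuclear ones in counts. The mitochondrial members held 2.75%, 2.12% and 2.09% of the counts on genes in Atrx-cKO and 2.25%, 2.10% and 2.23% in control libraries. The nuclear members held 0.549%, 0.472% and 0.468% and 0.518%, 0.437% and 0.519%. The ratio of the former to the latter was 5.02, 4.49 and 4.46 in Atrx-cKO and 4.34, 4.80 and 4.30 in control libraries, a mean of 4.66 ± 0.315 and 4.48 ± 0.279 (SD, n = 3), and the groups overlapped. The 6 low mitochondrial genes add almost nothing to it, and their levels are not read here as amounts of RNA. The mitochondrial shares and the ratio are thus of counts, and those of RNA could differ.

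One nuclear gene stood apart from its complex in a way that did not follow the genotype. Ndufs5 (ENSMUSG00000028648, chr4:123712710-123718202), a small subunit on the intermembrane face of complex I, had 6.11, 20.3 and 13.3 CPM in Atrx-cKO and 12.7, 5.90 and 26.7 CPM in control tibias. Its highest and lowest libraries differed 4.53-fold, where the other nuclear members of complex I kept to 1.73-fold or less. It is named because this was seen in the data. BC002163, a processed copy of Ndufs5 on chromosome 16 (chr16:42955631-42955949), had 643, 7 and 289 counts in Atrx-cKO and 285, 710 and 14 counts in control libraries. It was high where Ndufs5 was low, and the reverse.

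The coding sequence of Ndufs5 and the copy are identical at 316 of 318 bases. A stretch of 90 bases, from base 16 to base 105 of the coding sequence, holds both differences, in capitals.
Ndufs5: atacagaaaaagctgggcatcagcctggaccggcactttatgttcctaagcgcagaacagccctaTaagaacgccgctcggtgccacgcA
BC002163: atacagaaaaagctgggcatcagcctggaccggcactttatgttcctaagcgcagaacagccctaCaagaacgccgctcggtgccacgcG
Of the counts on both, the copy held 64.3% (95% Wilson interval 61.3% to 67.2%), 0.601% (0.292% to 1.24%) and 26.9% (24.4% to 29.7%) in the Atrx-cKO libraries. In the control libraries it held 28.2% (25.5% to 31.1%), 64.4% (61.5% to 67.1%) and 1.09% (0.650% to 1.82%). The shares fell near 3 levels, with 1 library of each genotype at each level, and the intervals, which cover counting error only, do not overlap between levels.

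Added together, the 2 genes gave 17.1, 20.4 and 18.2 CPM in Atrx-cKO and 17.7, 16.6 and 27.0 CPM in control libraries. The sum varied 1.63-fold over the libraries, with control 3 again the highest, and its means were 18.6 ± 1.67 and 20.4 ± 5.73 CPM (SD, n = 3). Ndufs5 on its own had a log2 fold change of -0.19 with an interval from -1.52 to 1.15 beside a log2 ratio of -0.14 for the sum. Ndufa12, an accessory complex I subunit with 17.7% of its windows in a processed copy, Gm15920, did not show this trade. The copy had 236, 69 and 50 counts in Atrx-cKO and 191, 110 and 157 counts in control libraries, and Ndufa12 had 27.7, 20.5 and 20.7 CPM and 24.0, 20.7 and 32.1 CPM, both highest in the first library of the Atrx-cKO group.

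**Figure D5:**
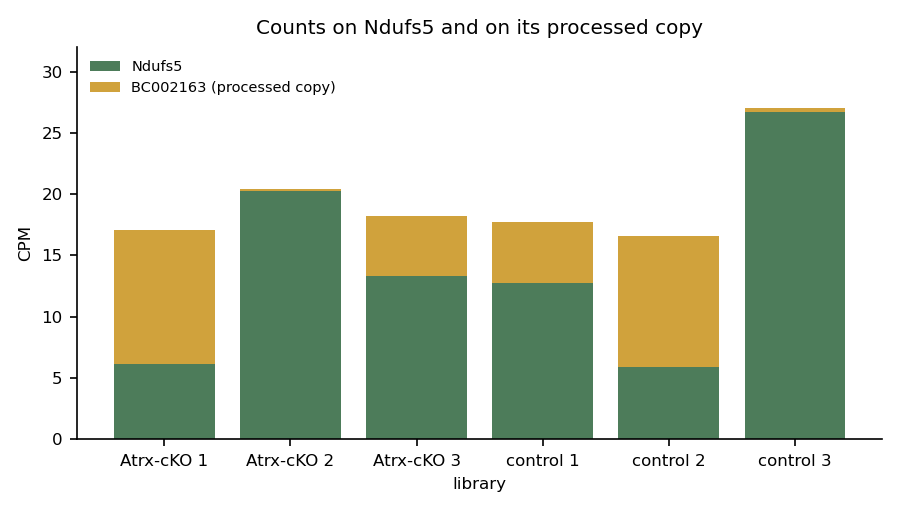
CPM counted on Ndufs5 (green) and on its processed copy BC002163 (yellow), stacked, in each library. The copy takes most of the bar in Atrx-cKO 1 and control 2, a smaller part in Atrx-cKO 3 and control 1, and almost none in Atrx-cKO 2 and control 3, while the height of the bars varies 1.63-fold.

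Genes that build or serve the complexes were read from lists of named factors. No gene of the 7 lists passed an adjusted p of 0.05. Of the 14 complex I assembly factors and the 30 tested assembly factors of complexes II to V, 0 reached an unadjusted p of 0.05 (edgeR's quasi-likelihood test), with median log2 fold changes of -0.017 and -0.014 beside 0.0050 for all genes. Surf1, a complex IV assembly factor, had 26.0, 29.1 and 30.8 CPM in Atrx-cKO and 28.1, 29.3 and 29.7 CPM in control tibias. The 14 electron carriers, coenzyme Q enzymes and subunits with other names had a median of 0.0060, among them Cyc1, the cytochrome c1 of complex III, with 87.3, 70.6 and 63.6 CPM and 74.6, 65.3 and 82.0 CPM, highest in the same libraries as the nuclear members.

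The 22 genes for mitochondrial DNA replication, transcription and RNA handling had a median log2 fold change of 0.026, and 0 reached an unadjusted p of 0.05. Tfam, which packages and transcribes mitochondrial DNA, had 28.9, 25.5 and 25.9 CPM in Atrx-cKO and 24.9, 22.5 and 26.8 CPM in control tibias (log2 fold change 0.12, standard error 0.10). The 12 tested regulators of mitochondrial biogenesis had a median of -0.082. Nrf1 and Gabpa, whose products read the promoter cores shown above, had log2 fold changes of 0.044 (standard error 0.090) and -0.013 (standard error 0.064). Perm1, a regulator known from striated muscle, was the only gene of the 7 lists with an unadjusted p under 0.05, against 3.64% of all genes tested. It had 8.65, 7.29 and 6.94 CPM in Atrx-cKO and 9.71, 9.35 and 13.9 CPM in control tibias (log2 fold change -0.52, unadjusted p = 0.0230, adjusted p = 0.992, edgeR's quasi-likelihood test). The groups did not overlap in Perm1, as in 4.01% of all genes in this direction, and control 3 was again the highest library. The log2 fold change of Perm1 ran from -0.63 to -0.33 when single libraries were left out. Its unadjusted p was 0.0597 without control 3 (log2 fold change -0.33), 0.0602 without Atrx-cKO 2 (-0.50) and 0.0677 without Atrx-cKO 3 (-0.46), and it was 0.0103 with the muscle marker covariate (-0.41) and 0.0401 with the replicate block (-0.51).

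Fuel pathways upstream gave the same picture by library. The 17 citric acid cycle genes had a median log2 fold change of -0.054 and the 19 glycolysis genes one of -0.097, and 0 of either list reached an unadjusted p of 0.05 by edgeR. The glycolysis genes summed to 4330, 3018 and 2668 CPM in Atrx-cKO and to 3248, 2870 and 5773 CPM in control libraries, with Atrx-cKO 1 and control 3 highest. The citric acid cycle genes summed to 1666, 1392 and 1434 CPM and to 1473, 1462 and 1803 CPM, again highest in those libraries.

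One gene next to this machinery did change. Lyrm4, outside the lists and named after its values were seen, encodes a partner of the cysteine desulfurase that makes the iron-sulfur clusters carried by complexes I, II and III. It had 17.9, 17.9 and 16.6 CPM in Atrx-cKO and 4.52, 5.21 and 4.96 CPM in control tibias and was 1 of the 3 genes called over all genes tested (log2 fold change 1.83, standard error 0.11; Benjamini-Hochberg adjusted p = 0.00771 by the quasi-likelihood test of edgeR). The fold change kept its size when single libraries were left out, from 1.78 to 1.88, while the adjusted p rose to 0.105 without the first Atrx-cKO library, 0.143 without the second and 0.0595 without the second control library. The subunits that hold such clusters were not called: beside Sdhb, given above, Ndufs1 had a log2 fold change of -0.020, Ndufs7 of -0.072, Ndufs8 of -0.055, Ndufv1 of -0.049, Ndufv2 of -0.014 and Uqcrfs1, the Rieske protein, of -0.060.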

How the data were processed

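The authors deposited raw counts per Ensembl gene for 6 tibia libraries (paired-end reads of 150 bases, poly(A) selection, strand-specific kit per the labels), which were used as deposited. The submitters' processing notes name GRCm38 and DESeq2, and the aligner, the counter and its strand setting are not given in the sources used here. Left out were 5 summary entries, with 51.6% to 52.4% of each table outside annotated features and 3.69% to 4.56% not uniquely aligned, and counts on genes held 42.8% to 43.8%. In all, 55141 of 55401 identifiers were named by GENCODE M21 (GRCm38).

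Counts were fitted with edgeR 4.0.16 (TMM, filterByExpr, glmQLFit and glmQLFTest, genotype alone) in R 4.3.3, and p-values were adjusted over the 20636 genes tested. The script was tested on simulated data. DESeq2 1.42.0, other scalings, no filter, a muscle covariate, a replicate block and the loss of each library were the alternatives. The members and lists were chosen with earlier results of these data known. Named were the mitochondrial genes, isoform sets, complex II, the 3 highest and 3 lowest nuclear fold changes, the most abundant gene of each complex and any gene at p under 0.05. Windows of 100 bases were matched to GENCODE M21 transcripts.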

Additional observations from a re-analysis of the deposited data

How the results depend on the processing

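The count of subunit genes called stayed at 0 under every alternative run, and 0 mitochondrial members reached an unadjusted p of 0.05 in any of them. The number of nuclear members lower at that p, of 82 tested, went from 0 to 1 with the replicate block. It ran from 0 to 5 when single libraries were left out, the 5 without the first Atrx-cKO library. The share of all genes at that p was not taken for these fits, so the counts are not read against a background. The medians and summed shares moved by less than 1 SD between replicates, although the nuclear median ran from -0.15 to 0.0030 and the mitochondrial one from -0.087 to 0.12 over the left-out libraries. With 3 libraries a group, differences of any size inside the intervals given above remain compatible with the counts. Among all genes, 3 were called by edgeR, 10 without the filter on low counts, 37 by DESeq2, 5 without the third control library and 0 to 2 without another library.

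Most named fold changes lie so near 0 that their sign depends on the setting, and none of those that changed sign was called. Scaling to library size alone gave mt-Nd2 0.038, mt-Nd4 0.067, Cox4i1 0.043, Cox4i2 0.048, Cox6a1 0.044, Cox6b1 0.068, Cox6b2 0.025, Cox7a2l 0.062, Cox7b 0.069, Cox8a 0.048, Atp5g2 0.055 and Atp5a1 0.023. The muscle marker covariate gave mt-Nd2 0.035, mt-Nd4 0.045, Cox4i1 0.015, Cox6b1 0.032, Cox7b 0.032 and Atp5a1 0.0086. RLE scaling gave mt-Cytb -0.0020 and Atp5g3 -0.0011, and DESeq2 gave mt-Cytb -0.0022 and Atp5g3 -0.0013. Over the left-out libraries the values that crossed 0 ran from -0.17 to 0.12 for mt-Nd1, -0.23 to 0.064 for mt-Nd2, -0.16 to 0.075 for mt-Nd4, -0.11 to 0.11 for mt-Nd5, -0.063 to 0.17 for mt-Nd6, -0.15 to 0.067 for mt-Cytb, -0.14 to 0.088 for mt-Co1 and -0.044 to 0.13 for mt-Co2. In complex IV they ran from -0.092 to 0.032 for Cox4i1, -0.11 to 0.13 for Cox4i2, -0.083 to 0.045 for Cox6b1, -0.16 to 0.19 for Cox6b2, -1.37 to 0.11 for Cox7a1, -0.12 to 0.091 for Cox7a2, -0.064 to 0.046 for Cox7a2l, -0.15 to 0.069 for Cox7b, -0.095 to 0.028 for Cox8a and -1.51 to 0.044 for Cox8b. Elsewhere they ran from -0.15 to 0.12 for Ndufa4, -0.074 to 0.018 for Atp5g2, -0.16 to 0.078 for Atp5g3, -0.072 to 0.070 for Sdhd, -0.035 to 0.19 for Atp5mpl, -0.015 to 0.10 for Ndufb11 and -0.18 to 0.026 for Atp5a1. The cause was not tested.

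The replicate block gave mt-Cytb -0.011, mt-Co1 -0.0064, Cox6b1 4.6e-05, Cox7a2 -0.0057 and Atp5g3 -0.011, with 0 subunit genes called and 0 of all genes, where the fit without it called 3. The labels do not say whether the numbers pair the libraries. Same-numbered libraries had correlations of their deviations of -0.025, 0.062 and -0.071, and 1 of 3 matched its own number best. These values gave no sign of pairing, and with 3 libraries a group they cannot exclude it.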

Other observations

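Of the mitochondrial transcripts that are no subunit genes, the 16S ribosomal RNA mt-Rnr2 had 1333, 1264 and 1196 CPM in Atrx-cKO and 1077, 1058 and 1153 CPM in control libraries. The groups did not overlap, as in 4.30% of all genes in this direction, and the log2 fold change of 0.21 (standard error 0.096) did not pass the test (unadjusted p = 0.0654, adjusted p = 0.992, edgeR's quasi-likelihood test). The 12S ribosomal RNA mt-Rnr1 had 484, 445 and 354 CPM and 428, 353 and 352 CPM, with overlapping groups.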
